A study of Mus musculus with 24 samples.

Results

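Sodium channel, pacemaker channel and connexin genes were examined in mouse hearts that expressed a transgene of the beta-adrenergic pathway. The group was set by symbol as Scn4a, Scn4b, Scn7a, Hcn2, Hcn4, Gja1, Gja3 and Gja5. Of these 8 symbols, 6 were paired with a probe set in the annotation used, at 14 of the 45037 probe sets tested. Gja1 had 6 probe sets, Scn7a 3, Gja3 2, and Scn4b, Hcn2 and Gja5 1 each. Scn4a and Hcn4 are not analysed here. RNA of hearts from mice at 90 days of age was hybridised to 24 Affymetrix arrays, 1 per heart. There were 4 genotypes of 6 hearts. The control mice, called NTG, were non-transgenic. The other genotypes each carried a human cDNA driven in heart muscle cells by the alpha-myosin heavy chain promoter. AC5 mice carried AC5, an adenylyl cyclase. GLY mice carried the Gly389 form of the beta1-adrenergic receptor, and ARG mice its Arg389 form. Strain, sex and number of founder lines are not stated in the labels.

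The heartbeat depends on these proteins in sequence. Voltage-gated sodium channels start each action potential and are tuned by small beta subunits, among them the product of Scn4b. Pacemaker channels of the Hcn family open when the membrane is hyperpolarised, bind cyclic AMP directly and carry the current that brings a pacemaker cell back to threshold. Connexins join heart muscle cells through gap junctions, so that current passes from cell to cell. Beta1-adrenergic receptors and adenylyl cyclase raise cyclic AMP, the second messenger that speeds and strengthens the beat.

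Each value, near 1 in NTG hearts, was read as a ratio to the non-transgenic level on a linear scale, which is not stated. Such a ratio shows change in a gene but not how abundant its transcript was, so levels were not compared between genes and the presence of heart markers could not be checked. A probe set was called when the adjusted p of limma's test, taken over all probe sets of the comparison, was under 0.05. "Rose" and "fell" are used of called probe sets. Differences are given on the log2 scale ± SE of the fit, with n = 6 hearts per genotype. Because whole hearts were measured, fewer cells of a type and less RNA per cell cannot be told apart. No batch is named in the labels. Replicates 1 to 3 and 4 to 6 were also fitted apart, and those differences are given for the called genes.

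Scn4b and Gja3 carried the differences in this group, so the 250 bases before their RefSeq transcription start are shown, with those of Gja1, the connexin with the most probe sets, for contrast. All are from the mouse build GRCm38.p6 and read 5′ to 3′. Scn4b lies on the plus strand of chromosome 9 (chr9:45138374-45138623), Gja3 on the minus strand of chromosome 14 (chr14:57058031-57058280, the more upstream of its 2 starts) and Gja1 on the plus strand of chromosome 10 (chr10:56377050-56377299). Capitals mark a match on either strand to any of 6 motifs.

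Scn4b: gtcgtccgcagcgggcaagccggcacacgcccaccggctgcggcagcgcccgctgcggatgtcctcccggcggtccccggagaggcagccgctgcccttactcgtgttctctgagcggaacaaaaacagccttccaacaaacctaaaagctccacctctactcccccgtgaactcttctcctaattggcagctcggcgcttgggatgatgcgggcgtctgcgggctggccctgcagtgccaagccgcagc

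Gja3: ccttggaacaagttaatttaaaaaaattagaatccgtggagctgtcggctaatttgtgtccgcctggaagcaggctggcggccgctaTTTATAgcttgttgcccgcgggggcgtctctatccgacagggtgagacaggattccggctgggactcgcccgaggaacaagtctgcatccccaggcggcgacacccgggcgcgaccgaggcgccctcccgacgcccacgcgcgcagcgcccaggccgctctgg

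Gja1: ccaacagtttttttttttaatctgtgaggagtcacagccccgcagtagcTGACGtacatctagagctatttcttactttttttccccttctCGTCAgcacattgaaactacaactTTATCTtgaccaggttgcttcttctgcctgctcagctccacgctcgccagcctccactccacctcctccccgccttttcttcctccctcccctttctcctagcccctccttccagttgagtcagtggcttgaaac

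The motifs were the GC box GGGCGG, the cyclic AMP response element core TGACG, the GATA site AGATAA, the T-box site AGGTGTGA, the NKX2-5 core AAGTG and the TATA box TATAAA. The Scn4b window held none of these letters. The Gja3 window held the TATA box letters on the opposite strand at positions -163 to -158 from the start, a motif found in 12.4% of all 32851 such windows. The Gja1 window held 2 cores of the cyclic AMP response element, at -201 to -197 and -159 to -155, against 17.8% of windows with at least 1. It also held the GATA letters at -135 to -130, against 9.99% of windows. GC content was 66.0% in the Scn4b window and 62.8% in that of Gja3, above the median of 52.4% over all windows. That of Gja1 was below the median. The window before the other Gja3 start, not shown, held none of these motifs and had a GC content of 76.0%. These matches describe the letters in these windows only.

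The sodium channel gene that differed was Scn4b, whose protein is a beta subunit that binds the pore-forming subunit and modulates its gating. In ARG hearts it was 53.1% of the NTG level. Ratios in NTG hearts ran from 0.86 to 1.07 with a median of 0.997. Those in ARG hearts ran from 0.326 to 0.598 with a median of 0.561. Every ARG heart was below every NTG heart, and ARG replicate 4 was the lowest of all. Scn4b fell in ARG against NTG by 0.91 ± 0.22 on the log2 scale, 1.88-fold (adjusted p = 0.00592, 95% confidence interval of the difference -1.36 to -0.47). The difference was -0.78 within replicates 1 to 3 (adjusted p = 0.0684) and -1.04 within replicates 4 to 6 (adjusted p = 0.0286). After quantile normalization between arrays it was -0.70 ± 0.24 and no longer called (adjusted p = 0.0862). 

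GLY hearts lay between NTG and ARG hearts for Scn4b. Their ratios ran from 0.626 to 0.876 with a median of 0.726, and overlapped NTG only at the edge, where the highest GLY heart was above the lowest NTG heart. The difference from NTG was -0.40 ± 0.22 and was not called (adjusted p = 0.333). When the fit held only the GLY and NTG hearts, the difference was the same size with an SE of 0.10, and Scn4b fell (adjusted p = 0.0426). Every ARG heart was below every GLY heart, which held for 0.531% of all probe sets. Tested directly, however, ARG against GLY gave -0.51 ± 0.22 and was not called (adjusted p = 0.288), nor was it in a fit of these 12 hearts alone (adjusted p = 0.202).

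AC5 hearts had no common level of Scn4b. Replicates 1 to 6 had ratios of 0.648, 1.09, 0.51, 0.822, 1.99 and 1.51. Replicate 3 lay within the range of the ARG hearts, while replicates 2, 5 and 6 were above every NTG heart. The SD of these log2 ratios was 0.74, larger than that of 99.9% of all probe sets in AC5, while the SD in NTG was 0.14. The spread is shared over the 4 genotypes in the fit, so it widens the SE of every Scn4b comparison above. The difference of AC5 from NTG was 0.02 ± 0.22 (adjusted p = 0.997, interval -0.43 to 0.47). Scn4b fell in ARG against AC5 by 0.93 ± 0.22 (adjusted p = 0.00929), but the ranges overlapped. That difference was -0.31 ± 0.21 within replicates 1 to 3 (adjusted p = 0.745), -1.55 ± 0.26 within replicates 4 to 6 (adjusted p = 0.0043) and -0.67 ± 0.24 after quantile normalization (adjusted p = 0.179). In order of median the genotypes ran NTG, AC5, GLY and ARG, and no neighbouring pair in that order was called.

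**Figure D1:**
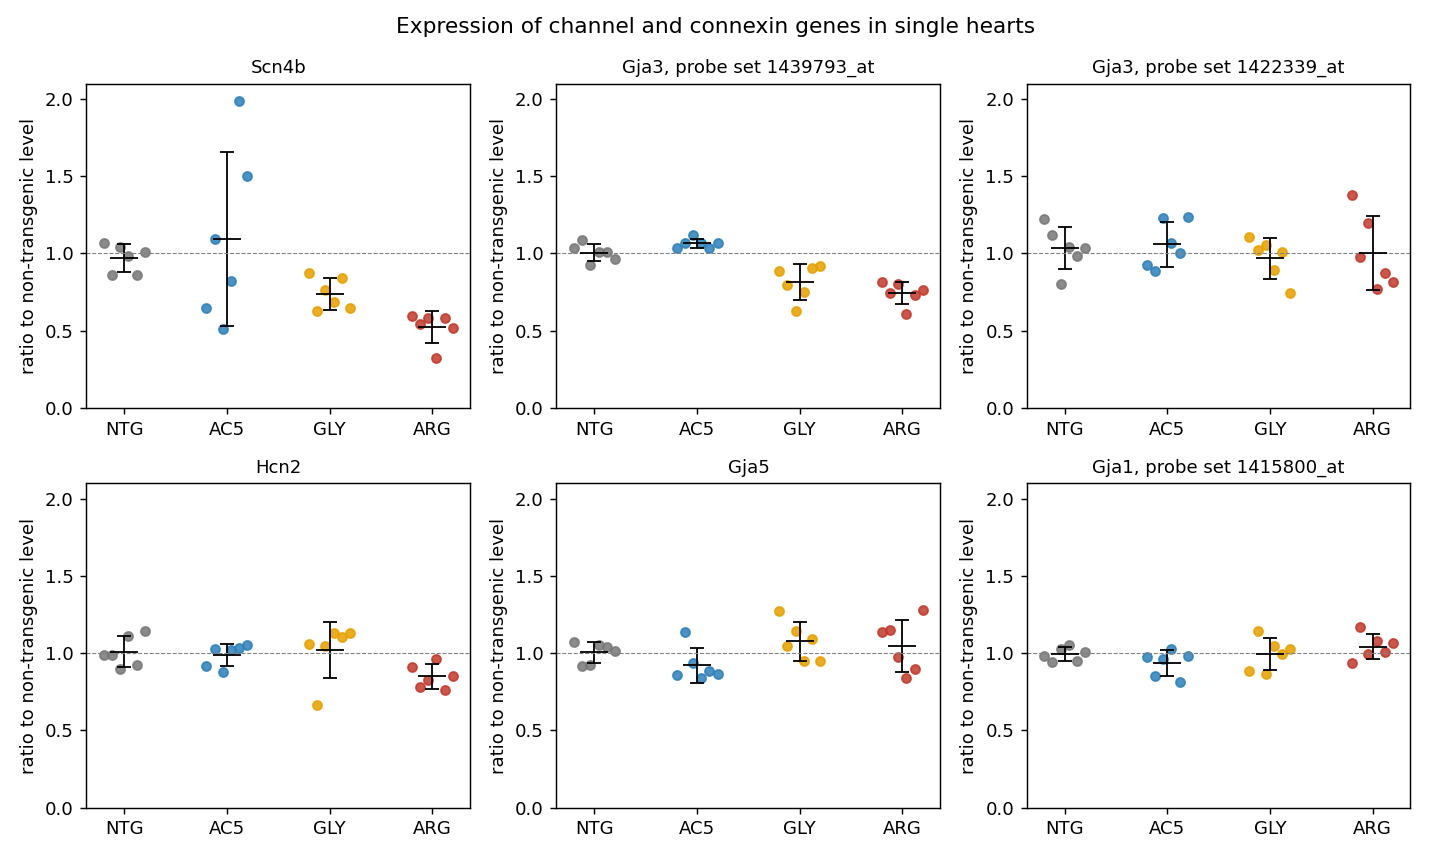
Ratio to the non-transgenic level (linear axis) in single hearts of the 4 genotypes for 6 probe sets; points are hearts in order of replicate number, and the black bar and whiskers are the mean and SD (n = 6). The ARG hearts lie below all NTG hearts for Scn4b and for 1 Gja3 probe set, and the AC5 hearts spread from 0.51 to 1.99 for Scn4b.

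Scn7a encodes the atypical sodium channel that responds to extracellular sodium and is known from glia, Schwann cells and other tissues. None of its 3 probe sets was called in any of the 6 comparisons (limma), and 0 had an unadjusted p under 0.05. In ARG against NTG the differences were -0.02 ± 0.14 at 1427495_at, 0.23 ± 0.19 at 1436043_at and -0.05 ± 0.19 at 1436044_at. The probe sets followed each other over the 24 arrays, with Pearson's r from 0.668 to 0.776. In GLY the lowest hearts were replicates 1 and 3 at every probe set, down to 0.323 in replicate 3 at 1436044_at, while the highest GLY value there was 1.22. Limma's array weights, which are low for arrays that stand far from their group over all probe sets, were also lowest for these arrays (0.354 and 0.312). The GLY against NTG difference at 1436044_at was -0.33 ± 0.19 with all arrays and 0.06 ± 0.10 without GLY replicates 1 and 3 and ARG replicate 1, uncalled in both cases (adjusted p = 0.373 and 0.842). Within replicates 1 to 3 the 3 probe sets differed by -0.52, -0.52 and -0.79, and within replicates 4 to 6 by 0.16, 0.41 and 0.12, with no call in either set. The mean log2 ratio of 9 nerve and Schwann cell markers was 0.12 and 0.09 in GLY replicates 1 and 3, against -0.07 to 0.07 in NTG hearts. That of 11 fibroblast markers was -0.50 and -0.21 in the same GLY hearts, against -0.20 to -0.01 in NTG hearts. In GLY replicates 2, 4, 5 and 6 the nerve mean was 0.14, -0.04, -0.0009 and -0.12. The fibroblast mean in these was -0.23, 0.07, -0.22 and 0.49, with Scn7a at 1436044_at at 1.02, 0.939, 0.919 and 1.22. Fibroblast means as low as that of replicate 3 thus also occurred in GLY hearts where Scn7a was near 1. The part of cell composition in these Scn7a values was not tested.

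Hcn2 encodes a pacemaker channel of the sinus node and ventricle that opens more readily when cyclic AMP is bound. Its ratios ran from 0.896 to 1.14 in NTG hearts with a median of 0.991. In ARG hearts they ran from 0.76 to 0.965 with a median of 0.84. ARG hearts were mostly lower, with overlap between the groups. The difference was -0.25 ± 0.10 (95% interval -0.46 to -0.03) and was not called (adjusted p = 0.161, or 0.0259 unadjusted). AC5 hearts (median 1.02) and GLY hearts (median 1.08) differed from NTG by -0.03 ± 0.10 and 0.00 ± 0.10. GLY replicate 2, at 0.663, stood far below the other GLY hearts, which ran from 1.05 to 1.13. ARG against GLY gave -0.25 ± 0.10 (adjusted p = 0.283). Without GLY replicate 2 it was -0.37 ± 0.08 and Hcn2 fell (adjusted p = 0.0167), so this 1 heart decided the call. A probe set for Hcn3, a related pacemaker channel, gave 0.04 ± 0.09 in ARG against NTG (adjusted p = 0.871).

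Among the connexins, Gja3 differed at 1 of its 2 probe sets. Gja3 encodes a connexin best known from the fibre cells of the eye lens. At 1439793_at its ratios ran from 0.928 to 1.09 in NTG hearts and from 1.03 to 1.12 in AC5 hearts. They were 0.625 to 0.922 in GLY hearts and 0.611 to 0.815 in ARG hearts. All hearts of both receptor genotypes were below all NTG and all AC5 hearts. Gja3 fell there by 0.44 ± 0.08 in ARG against NTG (1.35-fold, adjusted p = 8e-04) and by 0.31 ± 0.08 in GLY against NTG (1.24-fold, adjusted p = 0.0275). It also fell in ARG against AC5 by 0.52 ± 0.08 (adjusted p = 0.000265) and in GLY against AC5 by 0.40 ± 0.08 (adjusted p = 0.0202). These comparisons share hearts and are not independent of each other. The receptor genotypes were not called apart, with -0.12 ± 0.08 in ARG against GLY (adjusted p = 0.562, interval -0.30 to 0.05).

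The fall of Gja3 in ARG was -0.37 within replicates 1 to 3 (adjusted p = 0.167) and -0.51 within replicates 4 to 6 (adjusted p = 0.0131). It was called without any 1 array, with an adjusted p of 0.000703 to 0.0032. The fall in GLY rested on more of the arrays. It was not called without GLY replicate 3 (-0.24, adjusted p = 0.0831), GLY replicate 4 (0.0542), NTG replicate 1 (0.0584) or NTG replicate 2 (0.0678), nor after quantile normalization (-0.26, adjusted p = 0.0976). Within sets it was -0.42 (adjusted p = 0.0681) and -0.21 (0.54). GLY against AC5 was not called without GLY replicate 3 (adjusted p = 0.0554). The other Gja3 probe set, 1422339_at, was not called in any comparison, with -0.07 ± 0.13 in ARG against NTG (adjusted p = 0.863, interval -0.33 to 0.20). Its ARG ratios ran from 0.77 to 1.38, wider than at 1439793_at, and the 2 probe sets had an r of 0.329 over the 24 arrays. The Gja3 result therefore describes 1439793_at and not every transcript of the gene.

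Gja1 encodes the main connexin of ventricular muscle. None of its 6 probe sets was called in any comparison (limma), and in ARG against NTG all had an unadjusted p above 0.05. At 1415800_at the ratios were 0.941 to 1.05 in NTG hearts, 0.812 to 1.03 in AC5, 0.868 to 1.14 in GLY and 0.934 to 1.17 in ARG. The groups overlapped throughout. In ARG against NTG the 6 differences ran from 0.00 to 0.15, and the confidence intervals together spanned -0.33 to 0.33. In AC5 against NTG they ran from -0.27 to -0.09 (adjusted p from 0.809 to 0.921). In ARG against AC5 all 6 probe sets were higher in ARG, by 0.16 to 0.27, with 5 of them at an unadjusted p under 0.05. The lowest adjusted p was 0.0605, at 1438973_x_at. That probe set rose (0.24 ± 0.07, adjusted p = 0.0364) without the 3 arrays of low weight, with array weights (adjusted p = 0.0472) and without AC5 replicate 4 (0.27, adjusted p = 0.0349). The 6 probe sets report 1 gene and are not separate evidence, and their r over the arrays ran from 0.455 to 0.924, lowest for the noisier 1415801_at. The _x_ probe sets can bind other transcripts by the maker's naming.

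**Figure D2:**
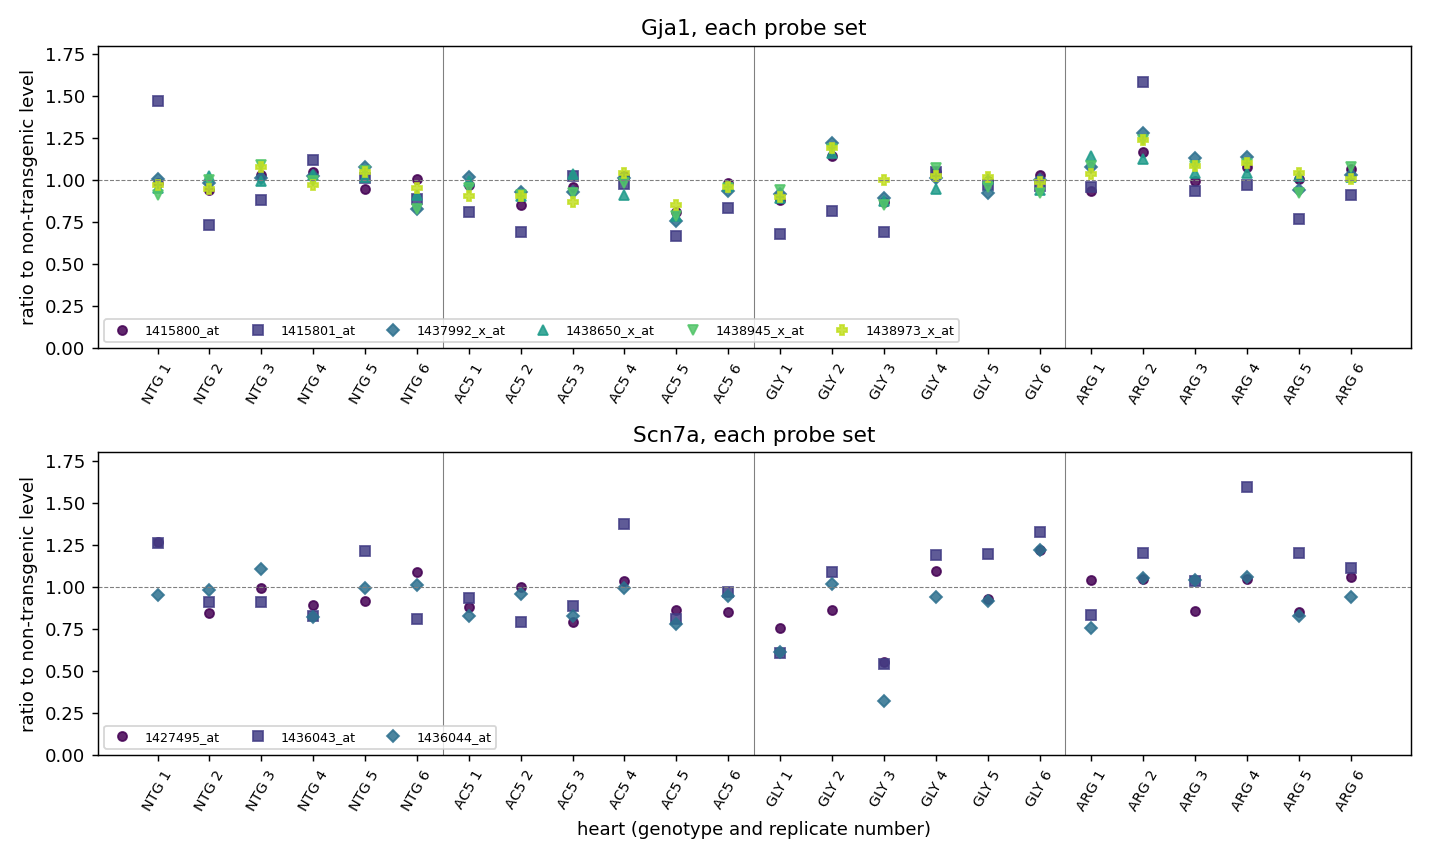
Ratio to the non-transgenic level (linear axis) in each of the 24 hearts for the 6 probe sets of Gja1 (top) and the 3 of Scn7a (bottom); each symbol is a probe set and vertical lines part the genotypes. Gja1 probe sets stay near 1 in most hearts, and all Scn7a probe sets are low in GLY replicates 1 and 3.

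Gja5 encodes the connexin of the atria, the Purkinje fibres and arterial endothelium. Its ratios ran from 0.92 to 1.08 in NTG hearts, 0.841 to 1.14 in AC5, 0.948 to 1.28 in GLY and 0.841 to 1.28 in ARG. Its differences from NTG were -0.13 ± 0.10 in AC5, 0.09 ± 0.10 in GLY and 0.04 ± 0.10 in ARG, none of them called (adjusted p = 0.868, 0.678 and 0.881). GLY was 0.22 ± 0.10 above AC5 with an adjusted p of 0.366. Of 9 atrial muscle markers 1 rose in ARG against NTG, the natriuretic peptide gene Nppa, and of 8 arterial endothelial markers 1 fell (median log2 differences 0.07 and -0.01).

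**Figure D3:**
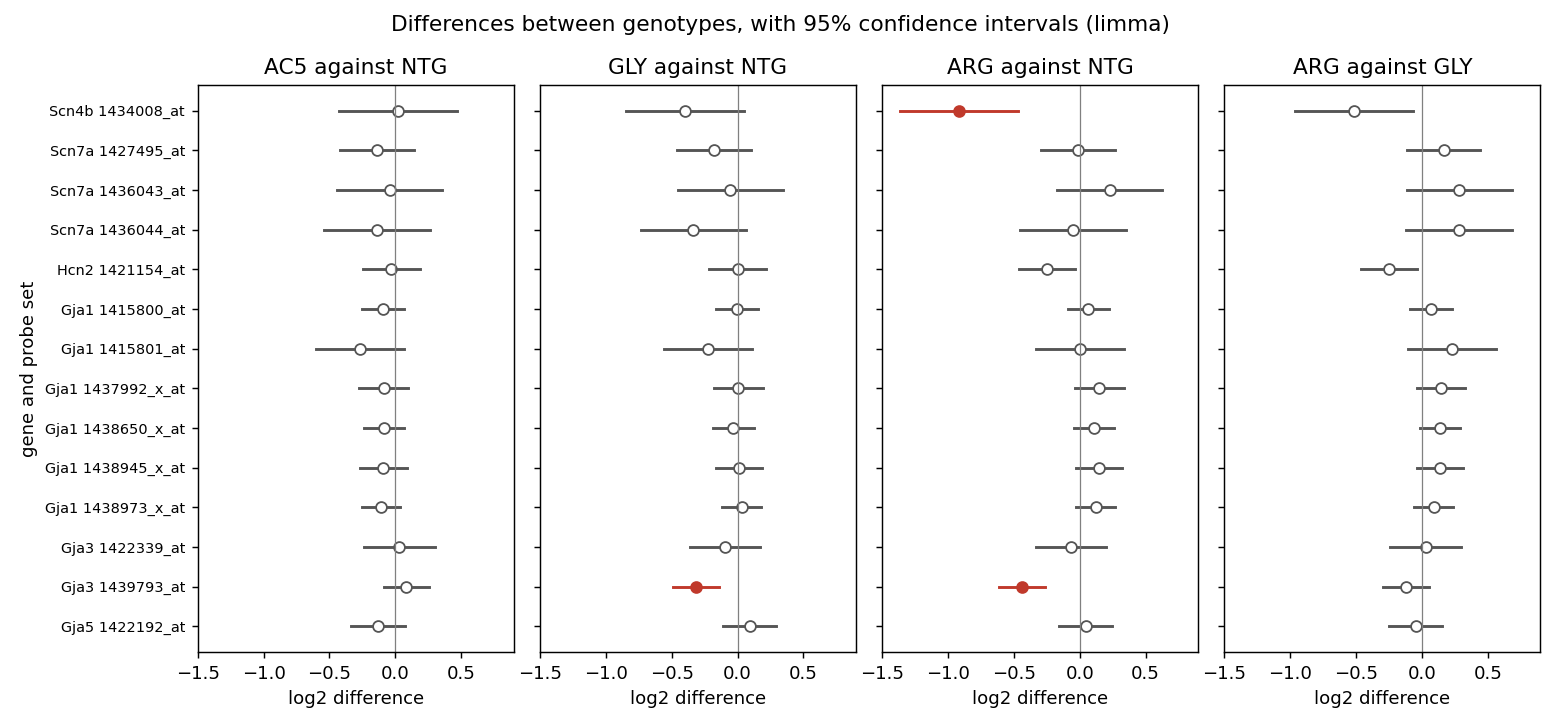
Log2 differences between genotypes with 95% confidence intervals from limma (n = 6 hearts per genotype) for the 14 probe sets in 4 comparisons; filled red points were called at an adjusted p under 0.05. Scn4b and Gja3 1439793_at fell in ARG against NTG, Gja3 1439793_at fell in GLY against NTG, and no probe set was called in AC5 against NTG or in ARG against GLY.

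Over the group, 2 of 14 probe sets fell and none rose in ARG against NTG, where 9.67% of all probe sets were called, 4.04% rose and 5.63% fell. In GLY against NTG 1 of 14 fell, where 5.08% of all were called and 3.53% fell. In AC5 against NTG none of 14 was called, with 0 at an unadjusted p under 0.05, and 0.142% of all were called. In ARG against GLY none was called, with 2 at an unadjusted p under 0.05 (Scn4b and Hcn2), and 1.51% of all were called. Against AC5, 2 of 14 fell in ARG and 1 in GLY, where 4.93% and 0.693% of all were called, and 2.41% and 0.437% fell. Counts this small do not set the group apart from the background. The probe sets whose ARG hearts all lay below all NTG hearts were the same 2 that fell, against 3.79% of all probe sets, and the 1 in GLY compares with 1.61%. Gja3 at 1439793_at was also wholly below AC5 in ARG and in GLY, which held for 1.57% and 0.462% of all. The median difference of the 14 probe sets was 0.02 in ARG and -0.04 in GLY against NTG, beside 0.00 and 0.03 over all probe sets.

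The genes whose log2 ratios followed Scn4b most closely over the 24 arrays were Pex19, a peroxisome assembly factor (r = 0.879), Fcna, the lectin ficolin A (0.878), and Thrsp, a thyroid hormone responsive gene of lipid synthesis (0.875). Those most like Gja3 at 1439793_at were Bex1, a brain expressed X-linked gene (0.885), Slc25a26, a mitochondrial carrier (0.869), and Adk, adenosine kinase (0.866). Scn4b and this Gja3 probe set had an r of 0.617 with each other. These arrays share the genotype differences, so the correlations describe a common pattern over genotypes as much as over single hearts. In ARG against NTG, Thrsp fell by 1.88 ± 0.22 and Bex1 fell by 2.99 ± 0.31, both more than the members they resembled.

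The other genes of these families were taken from lists with 1 probe set per gene. Of 9 other sodium channel subunits measured, none was called in any of the 6 comparisons (limma), with 0 at an unadjusted p under 0.05 in ARG against NTG and 1 in GLY. Their median difference was -0.03 in ARG and 0.07 in GLY. Of 12 partners of sodium channels 2 fell in ARG and 2 fell in GLY (medians -0.12 and 0.02), where 5.63% and 3.53% of all probe sets fell. Calls over every probe set of the partners went both ways. Ywhaz rose at 2 of 7 in ARG and 1 of 7 in GLY. Nedd4l fell at 1 of 6 in ARG and rose at 1 of 6 in GLY. Sntb1 fell at 2 of 6 in ARG and 1 of 6 in GLY, and Fgf13 fell at 1 of 2 in ARG. Gpd1l, a dehydrogenase-like enzyme, had ratios of 0.884 to 1.2 in NTG hearts, 0.632 to 0.807 in GLY and 0.534 to 0.726 in ARG. It fell by 0.59 ± 0.09 in ARG (adjusted p = 7.53e-05, with its second probe set falling too) and by 0.43 ± 0.09 in GLY (adjusted p = 0.00594, at 1 of 2 probe sets). Camk2d, a calcium-dependent kinase, fell at 2 of its 7 probe sets in GLY (-0.58 ± 0.13 at the listed one). In ARG it fell at 1 of 7, which was not the listed one (-0.51 ± 0.09), so Camk2d is not among the 2 counted in ARG.

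Against NTG, 4.04% of all probe sets rose and 5.63% fell in ARG, while 5.08% were called and 3.53% fell in GLY. Of 8 other genes tied to pacemaking 1 fell in ARG and none in GLY (limma, 0 in GLY at an unadjusted p under 0.05). The gene was Cacna1g, a T-type calcium channel of the nodes, with a difference of -0.51 ± 0.14 (adjusted p = 0.0157) and ratios of 0.474 to 0.916 in ARG hearts against 0.846 to 1.25 in NTG. Of 14 other connexins and pannexins 1 rose and 1 fell in ARG against NTG, and none was called in GLY (limma, 1 at an unadjusted p under 0.05). The one that fell was Gjc1, the connexin of the nodes and the conduction system. Its ratios at 1449094_at ran from 0.886 to 1.11 in NTG hearts, 0.776 to 1.06 in GLY and 0.643 to 0.725 in ARG, so that the ARG hearts were below all others of these groups. It fell by 0.53 ± 0.08 in ARG against NTG (adjusted p = 3.93e-05) and by 0.33 ± 0.08 in ARG against GLY (adjusted p = 0.0271). Its second probe set fell in both comparisons too (0.37 ± 0.08 and 0.31 ± 0.08). Panx1, a channel that releases ATP, rose by 0.52 ± 0.12 in ARG. Gja4, an endothelial connexin, differed by -0.03 ± 0.09.

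At the intercalated disc, where connexins and sodium channels cluster, 2 of 18 measured genes rose and 1 fell in ARG (median -0.15). In GLY 1 rose and 2 fell (median -0.03). Over all probe sets 4.04% rose and 5.63% fell in ARG, while 5.08% were called and 3.53% fell in GLY. Counts this small do not set the disc genes apart from those shares. Popdc3, a membrane protein that binds cyclic AMP, rose by 0.80 ± 0.10 in ARG and 0.56 ± 0.10 in GLY, with all hearts of both above all NTG hearts. The share of all probe sets parted upward in this way is not given here, so how common it was cannot be read. Ctnnb1, beta-catenin, fell in GLY at all 3 probe sets (0.40 ± 0.10 at the listed 1), and Tjp1, which binds connexins at the junction, fell there by 0.40 ± 0.12. Cxadr, an adhesion receptor, was not called at the listed probe set but fell at 4 of 5 probe sets in ARG and 3 of 5 in GLY. Of 16 transcription factors of the conduction system 1 rose and 3 fell in ARG, and 1 fell in GLY (medians -0.05 and 0.01). Hopx fell in ARG at both of its probe sets (-0.50 ± 0.09 at the listed one) and in GLY at 1 of 2. Mef2c fell at 1 of its 5 probe sets in ARG and in GLY (-0.52 ± 0.14 in each), and its other 4 were not called. Irx4, a ventricular factor, fell by 0.35 ± 0.06 in ARG against NTG and 0.34 ± 0.06 in ARG against GLY. The factor counted as rising in ARG was Nkx2-5, at its 1 probe set. Tbx3, a factor of the nodes, was not called at the listed probe set but rose at 2 of its 5 probe sets in ARG (up to 0.54 ± 0.13). In AC5 against NTG no gene of these 6 lists was called by limma, with 0 to 3 genes per list at an unadjusted p under 0.05.

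Markers of other cells were also called in ARG against NTG, where 4.04% of all probe sets rose and 5.63% fell. Of 12 macrophage markers 7 rose and of 11 fibroblast markers 6 rose and 1 fell, while of 12 endothelial markers 4 fell (median -0.25), of 9 smooth muscle and pericyte markers 2 fell (median 0.00), of 8 ventricular muscle markers 2 fell and of 10 conduction system markers 1 fell. Of 9 nerve and Schwann cell markers 1 rose, and of 11 skeletal muscle markers none was called (limma, 1 at an unadjusted p under 0.05). A single call does not set a list apart from the shares over all probe sets. In GLY against NTG 2 of the 12 endothelial markers fell (median -0.14), as did 1 macrophage marker and 1 smooth muscle and pericyte marker. In that comparison 3.53% of all probe sets fell. The mean log2 ratio of the endothelial list ran from -0.46 to -0.04 in ARG hearts, from -0.52 to 0.04 in GLY hearts and from -0.17 to 0.11 in NTG hearts. That of the fibroblast list ran from -0.02 to 0.76 in ARG hearts and from -0.20 to -0.01 in NTG hearts. The mean log2 ratio of the macrophage list ran from 0.17 to 0.92 in ARG hearts and from -0.11 to 0.07 in NTG hearts. That of the ventricular list ran from -0.33 to -0.03 in ARG hearts and from -0.18 to 0.14 in NTG hearts, with a median difference over its genes of -0.18. Because the values are ratios, it could not be seen which of these markers were near the limit of detection. The part of cell composition in the falls of Scn4b and Gja3 was not tested.

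**Figure D4:**
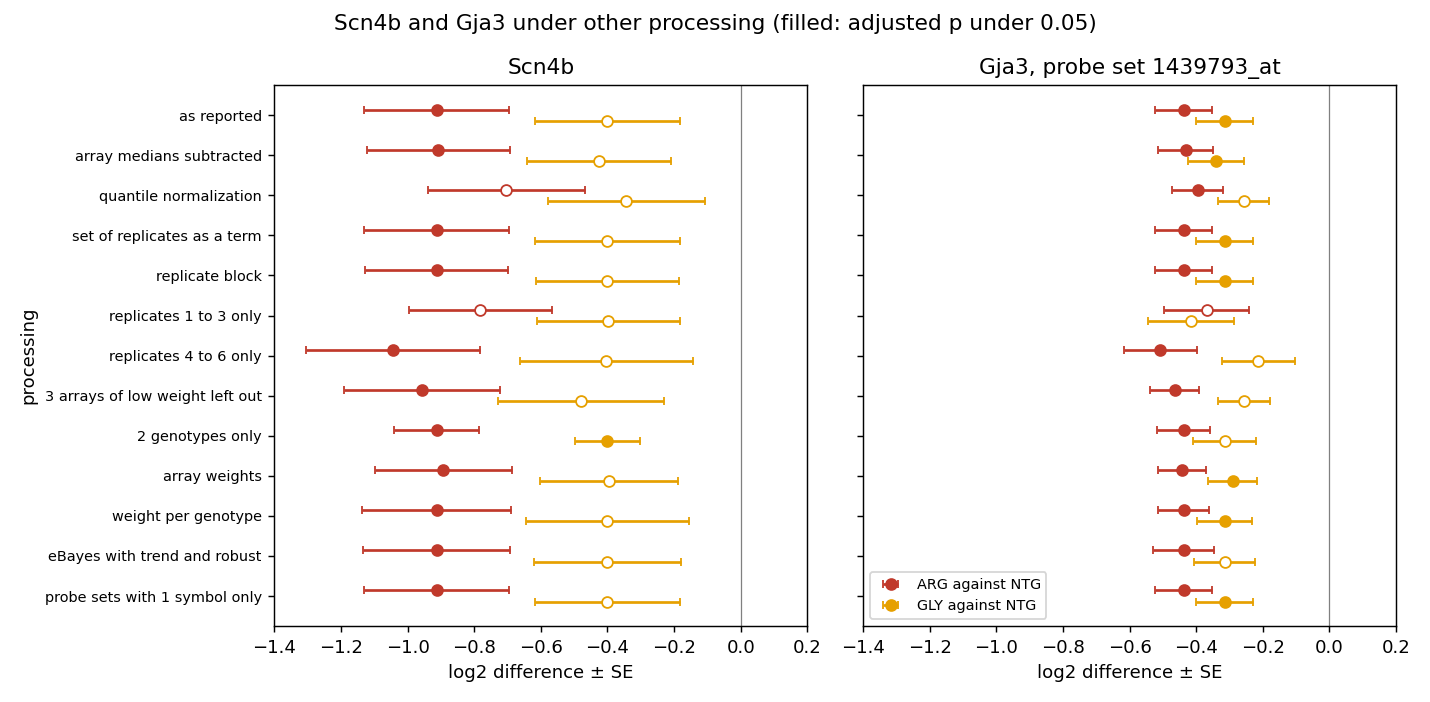
Log2 difference ± SE of Scn4b (left) and Gja3 at 1439793_at (right) against NTG in ARG and GLY hearts under each processing choice; filled points have an adjusted p under 0.05. The sign held throughout. The Scn4b call in ARG was lost after quantile normalization (limma, adjusted p = 0.0862) and within replicates 1 to 3 (0.0684). Scn4b was called in GLY only with 2 genotypes in the fit (0.0426). The Gja3 call in ARG was lost within replicates 1 to 3 (0.167). That in GLY was lost under several choices, among them quantile normalization (0.0976) and either set of replicates (0.0681 and 0.54).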

How the data were processed

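Heart RNA was measured on 24 Affymetrix arrays, 6 hearts for each of NTG, AC5, GLY and ARG. The submitters' processing notes name RMA, with no version. The deposited values are a linear ratio, centred near 1 in NTG arrays. The division by a control level was read from the values and is not stated. Of 45101 probe sets, 64 Affymetrix controls were left out and no filter on brightness was possible. Symbols came from the platform annotation, updated through Entrez identifiers. Promoter windows came from RefSeq (GRCm38.p6), cut to the 250 bases before the start.

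The plan assumed values on a log2 scale; as the table was linear, log2 was taken first. A limma model (version 3.58.1, R 4.3.3) gave each genotype its own mean. Benjamini-Hochberg adjustment ran over 45037 probe sets within each of 6 comparisons. The fit shares 1 spread per probe set over the genotypes, although the mean SD between replicates ran from 0.143 (NTG) to 0.221 (GLY). The number of arrays limits the precision. The NTG means of replicates 1 to 3 and 4 to 6 correlated over probe sets (r = 0.217), which does not show whether the sets differ. The sets were also fitted apart, although no batch is named in the labels. The script was tested on simulated data. All probe sets of the members were named. From the other lists, at most the 4 called genes with the largest change per list and comparison were eligible, plus Gjc1, Gja4 and Hcn3, and some are left out. Lists took 1 probe set per gene by suffix, then lowest number. For each called member probe set, the 3 genes with the highest r were named. The members, lists, tests and alternatives were chosen with earlier results of these data known. Tables were made with pandas 2.3.3 and plots with matplotlib 3.10.9.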

Additional observations from a re-analysis of the deposited data

Results flagged for a closer look

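In 9 of 56 sets of 6 hearts (14 probe sets in 4 genotypes), 1 heart stood apart from the other 5 by Dixon's criterion, which chance meets in about 1 set in 20. Scn4b was 0.326 in ARG replicate 4, with the other ARG hearts at 0.515 to 0.598. The same heart was lowest for Gja3 at 1439793_at, at 0.611 against 0.733 to 0.815. Hcn2 was 0.663 in GLY replicate 2, with the others at 1.05 to 1.13. Gja5 was 1.14 in AC5 replicate 2, with the others at 0.841 to 0.935. Scn7a at 1436043_at was 1.38 in AC5 replicate 4, with the others at 0.791 to 0.969. The remaining 4 concerned Gja1. At 1415801_at it was 1.59 in ARG replicate 2, with the others at 0.768 to 0.975. At 1437992_x_at it was 0.83 in NTG replicate 6, with the others at 0.982 to 1.08, and 0.758 in AC5 replicate 5, with the others at 0.932 to 1.02. At 1438945_x_at it was 0.785 in AC5 replicate 5 too, with the others at 0.912 to 0.985. The AC5 spread of Scn4b, from 0.51 to 1.99, did not meet the criterion.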

How the results depend on the processing

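The processing was changed in 12 ways, and each of the 24 arrays was left out in turn. Of 2016 values of member probe sets under these alternatives, 20 lost a call, 5 gained one and none that was called under either processing changed sign. Of the 2 called probe sets in ARG against NTG, 1 remained called after quantile normalization and 0 within replicates 1 to 3. In ARG against AC5 the count was likewise 1 and 0 instead of 2. The 1 call in GLY against NTG became 0 without the 3 arrays of low weight, after quantile normalization, with a trended and robust prior, and within either set of 3 replicates. With only the 2 genotypes in the fit it was 1, but then of Scn4b (adjusted p = 0.0426) and not of Gja3 (0.0917). The 1 call in GLY against AC5 became 0 with only 2 genotypes and within either set. Leaving out 1 array gave 0 to 1 in GLY against NTG, 0 to 1 in GLY against AC5 and 0 to 1 in ARG against GLY, the last through Hcn2. The cause of these changes was not tested, and the fits within sets also held fewer hearts. Same replicate numbers did not pair the hearts (correlation of deviations from the genotype means -0.289 to 0.492 over 36 pairs, median 0.04). With the replicate number as a block, 2 members were called in ARG, 1 in GLY and 0 in AC5 when set against NTG, 2 in ARG and 1 in GLY when set against AC5, and 0 between the receptor genotypes, with no call changed. Over all probe sets, 4355 were called in ARG against NTG and 2286 in GLY, or 2400 and 633 after quantile normalization. In ARG against GLY the count went from 678 to 58. In AC5 against NTG it went the other way, from 64 to 398, and was 188 without the 3 arrays of low weight. The few calls in AC5 thus also depend on the processing. With ratios only, signal over background is unknown.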
